A study of Canis lupus familiaris with 5 samples.

Results

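The cells described here are the myeloperoxidase-rich progenitors of CD34-sorted dog bone marrow. They were chosen in the 2 CD34-sorted libraries among cell barcodes with at least 200 detected genes and at most 10% of unique molecular identifiers (UMIs, one per captured RNA molecule) from mitochondrial genes. A barcode was kept when MPO made up 0.1% or more of its UMIs, VPREB1 had at most 2 UMIs and PAX5 had 0. The rule found 741 cells among 8485 sorted barcodes within the quality limits, 405 in CD34-sorted library 1 and 336 in CD34-sorted library 2. The series holds 27953 barcodes in 5 libraries, of which 24708 were within those limits. They are called MPO-high sorted cells below. The values of MPO, VPREB1 and PAX5 chose them, so those genes are described and not tested.

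The study profiled femoral marrow of 3 healthy wild-type dogs by 10x Genomics single-cell RNA sequencing. Each dog gave 1 whole marrow library after red cell lysis, and viable CD34+ cells were sorted from 2 of those marrows into the 2 CD34-sorted libraries. No dog was treated, and the labels give no age. The sorted libraries thus share dogs with 2 of the 3 whole marrow libraries, and n counts libraries throughout.

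Neutrophils arise in marrow from CD34+ progenitors that pass through a promyelocyte stage, where the primary (azurophil) granules form. Myeloperoxidase, the product of MPO, is the heme enzyme of those granules that makes hypochlorous acid. It is folded in the endoplasmic reticulum with help from calreticulin (CALR). Neutrophil elastase (ELANE) and the antimicrobial protein BPI are packed into the same granules, while secondary and tertiary granule proteins such as lactoferrin (LTF), lipocalin 2 (LCN2), cathelicidin (CAMP) and the collagenase MMP8 are made later.

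MPO-high sorted cells were deeply sampled, with a median of 26423 UMIs and 3629 genes per cell in sorted library 1 and 30279 UMIs and 3845 genes in sorted library 2. The 5 libraries held 46114431 to 70169186 UMIs each. The mitochondrial limit removed 223 barcodes of sorted library 1 and 1115 of sorted library 2, against 445 to 856 of the whole marrow libraries. No barcode sequence was shared between libraries among cells that met the rule. The median mitochondrial share of the MPO-high sorted cells was 6.13% and 7.20%. A doublet caller marked 7 of the 405 cells and 10 of the 336.

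MPO made up a median of 0.340% of UMIs in the MPO-high cells of sorted library 1, with a highest value of 1.62%. The median in sorted library 2 was 0.315% and the highest value 1.24%. The limit did not fall in a gap. Just inside it, from 0.10 to 0.12%, lay 23 and 17 cells, and just outside, from 0.08 to 0.10%, lay 27 and 31. The limits on VPREB1 and PAX5, genes of the B lineage, left out 40 and 34 barcodes that were above the MPO limit.

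CD34, the surface protein used for the sort, had at least 1 UMI in 395 of 405 cells (97.5%, exact 95% interval 95.5 to 98.8%) and in 315 of 336 cells (93.8%, 90.6 to 96.1%). Intervals cover counting error only. The label of neutrophil progenitor was checked against markers of other marrow cells. Of 11 mature neutrophil markers, MMP8, CXCR2 and CD177 were at 0 in both libraries, and the list summed to 203 and 187 CPM (counts scaled to a common library total of 1000000 UMIs). S100A8 gave 190 and 149 CPM of that sum. Of 16 erythroid markers, ALAS2, HEMGN, TFR2, SLC4A1 and TSPAN33 were at 0 in both, and the sum was 62.0 and 78.3 CPM. The macrophage genes C1QB, C1QC and CD163 and the T-cell gene CD3E were also at 0 in both. The 10 plasmacytoid dendritic markers summed to 755 and 900 CPM, of which GZMB gave 585 and 724 CPM. The 15 monocyte or macrophage markers summed to 237 and 208 CPM, of which LY86 gave 95.4 and 82.9. In sorted cells with MPO above 0 and under 0.1% they summed to 157 and 204 CPM, with LY86 at 24.9 and 40.8. Of the 12 pro-B and pre-B markers, the rule limited VPREB1 and PAX5, and CD79A, a B-cell receptor chain, was left out of the sums. CD79A was at 9631 and 10070 CPM in MPO-high cells and at a like 10840 and 10250 CPM over all kept cells of the sorted libraries. Whole marrow cells that met the same rule had CD79A at 6304, 5880 and 5721 CPM. All kept cells of whole marrow had it at a like 5841, 5414 and 5318 CPM. With it, the list took a median of 0.991% and 1.03% of UMIs in MPO-high cells and 2.04% and 2.00% in pro-B cells. Without it the list summed to 104 and 119 CPM, of which DNTT gave 77.5 and 92.6, against 7673 and 8068 CPM in pro-B cells. With CD79A and GZMB left out, the monocyte or macrophage list had the highest sum among the lists of mature cells and of other lineages. The list of stem and progenitor cells summed higher, to 338 and 272 CPM, of which CD34 gave 228 and 166.

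ALPL, RBP7, CALR and RAB44 were given as markers of these cells together with MPO. ALPL encodes tissue-nonspecific alkaline phosphatase, RBP7 a cellular retinol-binding protein, and RAB44 a large Rab-family GTPase. In summed counts of the MPO-high sorted cells, ALPL was at 152 and 147 CPM, RBP7 at 206 and 221, CALR at 531 and 534, and RAB44 at 79.3 and 72.5. The sorted libraries thus gave nearly the same level for each marker. When every cell was thinned to 2000 UMIs, RBP7 was detected in 32.8% and 34.8% of MPO-high cells, against 17.1% and 14.1% of sorted cells with MPO above 0 and under 0.1% (low-MPO cells) and 1.11% and 1.60% of pro-B cells. RAB44 was detected in 15.3% and 12.9% of MPO-high cells, 3.38% and 5.17% of low-MPO cells and 0.292% and 0.319% of pro-B cells. ALPL separated them less, with 26.7% and 25.5% against 14.3% and 17.6% in low-MPO cells and 2.57% and 3.06% in pro-B cells. CALR, a general chaperone, was detected in 60% and 53.8% of MPO-high cells, 27.6% and 31.9% of low-MPO cells and 22% and 26.3% of pro-B cells. Before thinning, RBP7 had a UMI in 98.3% of MPO-high cells of sorted library 1 and 5.67% of its pro-B cells, whose median depth was 4929 UMIs. These are descriptions, since the markers were chosen on these cells.

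Within the sorted libraries, a small set of neutrophil granule genes was far higher in MPO-high cells, and the markers by less. Of 1885 features with 50 CPM or more in MPO-high cells of both libraries, 24 (1.27%) were at least 2-fold above the low-MPO cells in both. The rule drew on this contrast, so the folds carry no test and nothing is read from the count. ELANE was at 356 and 1328 CPM in MPO-high cells and at 0.541 and 2.54 CPM in low-MPO cells. Granzyme B (GZMB), a serine protease best known from cytotoxic lymphocytes, was at 585 and 724 CPM against 9.19 and 7.67. SLPI, an inhibitor of elastase, was at 568 and 535 CPM against 2.94 and 25.2. BPI was 6.01-fold and 5.99-fold higher, SERPINB1, a cytosolic inhibitor of neutrophil proteases, 4.93-fold and 4.97-fold, and ALAS1, the first enzyme of heme synthesis, 4.34-fold and 4.38-fold. The transcription factor CEBPE, known for its role in late granulocyte maturation, was 4.08-fold and 4.28-fold higher.

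The other genes with a symbol among the 24, besides MPO, were ARHGAP45, COX7A1, RAB44, MGST1, PRSS57, CALR, PYGL, PIR, NQO2, GADD45B, LY86, RBP7 and ALOX5AP. ARHGAP45, a GTPase-activating protein, was at 771 and 1475 CPM against 103 and 183. PRSS57, a serine protease of primary granules, was at 705 and 885 CPM against 272 and 332. MGST1, a microsomal glutathione transferase, was 3.56-fold and 2.93-fold higher, and PYGL, the liver-type glycogen phosphorylase, 2.30-fold and 2.37-fold. RBP7 was 2.02-fold and 2.43-fold higher.

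Inside the MPO-high cells, ELANE, SLPI and CALR were also higher in each higher band of MPO share. ELANE in sorted library 1 was at 11 CPM in the 274 cells with MPO from 0.1 to 0.5% of UMIs, 547 in the 119 cells from 0.5 to 1%, and 5961 in the 12 cells at 1% or more. In sorted library 2 it was at 177, 3925 and 4100 CPM in 237, 92 and 7 cells. SLPI went from 44.9 through 1051 to 7128 CPM in sorted library 1, and from 307 through 995 to 1796 in sorted library 2. CALR went from 426 through 707 to 1056 CPM and from 401 through 827 to 954. ALPL did not follow this order, with 154, 144 and 183 CPM in sorted library 1 and 152, 135 and 157 in sorted library 2. The highest band rests on 12 and 7 cells.

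**Figure D1:**
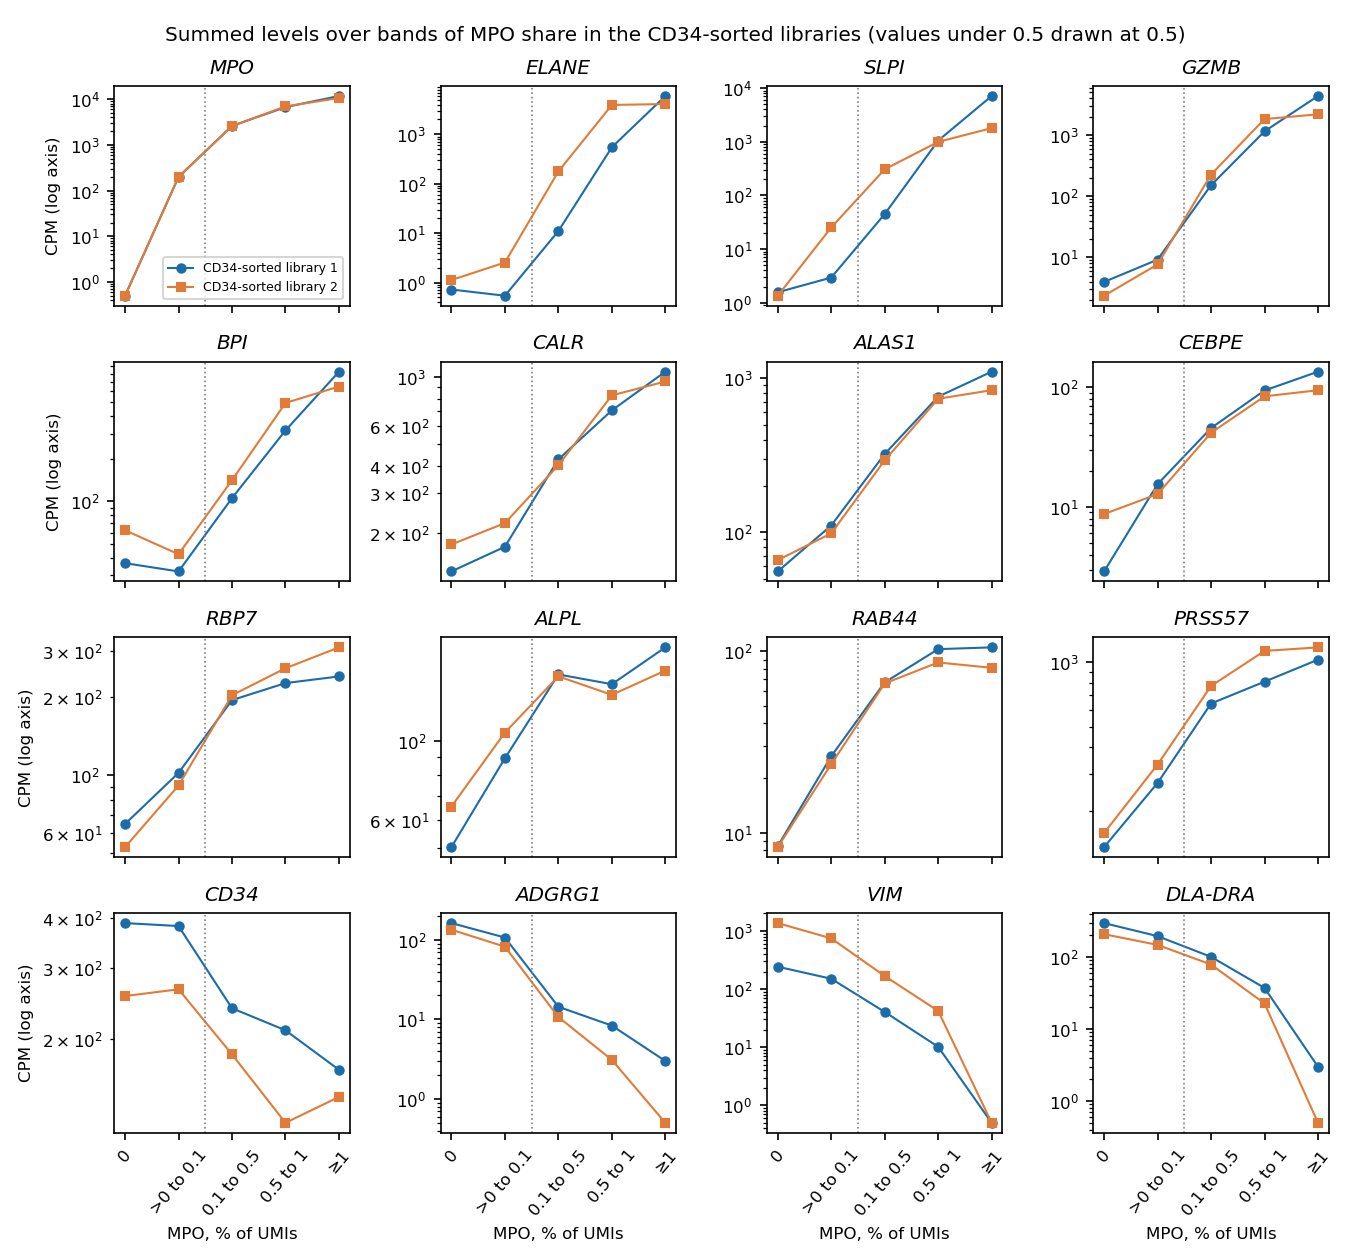
Summed level (CPM, log axis) of 16 genes in 5 bands of MPO share of UMIs in each CD34-sorted library; the dotted line marks the 0.1% limit and each point is the sum over all cells of a band. ELANE, SLPI and GZMB are far higher above the limit, ALPL stays between 135 and 183 CPM there, and ADGRG1 and VIM are lower.

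Fewer transcripts of several early progenitor genes were seen in MPO-high cells. Of 1897 features with 50 CPM or more in low-MPO cells of both libraries, 33 (1.74%) were at least 2-fold below them in MPO-high cells of both. ADGRG1, an adhesion G-protein-coupled receptor of stem cells, was at 12.2 and 8.32 CPM against 107 and 82.2. SULT1B1, a sulfotransferase, was at 14 and 21.2 CPM against 149 and 158. LGALS1, which encodes galectin-1, was at 15.6 and 27.0 CPM against 119 and 236. Carbonic anhydrase CA2 was at 16.9 and 39.2 CPM against 146 and 209. VIM, the intermediate filament vimentin, was at 29.9 and 128 CPM against 150 and 744. S100A5, FCER2 (the low-affinity IgE receptor), TFPI (tissue factor pathway inhibitor), SYNE2 and RGS2 completed the 10 named genes of lowest ratio, with ratios of 0.0682 to 0.294. CD34 itself was at 381 CPM in low-MPO cells of sorted library 1 and at 239, 210 and 168 CPM in the 3 MPO-high bands. In sorted library 2 it was at 266 CPM and then 183, 124 and 144.

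Grouped by function, the primary granule list stood furthest above the low-MPO cells. Of its 13 members with 20 CPM or more, MPO left out, 12 were higher in both libraries and 0 lower in both. Over all 3901 features of that level, 42.5% were higher in both and 39.2% lower in both. At least 2-fold higher in both were 7 of the 13, and 0.948% of all features. Of 39 genes of endoplasmic reticulum folding and secretion, 36 were higher in both. HSP90B1, the reticulum's HSP90 chaperone, went from 632 and 633 CPM in low-MPO cells to 1243 and 1068. PDIA4, a disulfide isomerase, went from 155 and 162 to 309 and 271 CPM. Of 40 nuclear genes of oxidative phosphorylation, 37 were higher in both, with median log2 ratios of 0.25 and 0.14. Of 38 genes of nucleolus and ribosome assembly, 29 were higher, with median log2 ratios of 0.22 and 0.09.

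All 8 stem and early progenitor genes of that level were lower in both libraries, 4 of them at least 2-fold (1.95% of all features), and so were 7 of 8 MHC class II genes, whose products present antigen. DLA-DRA, a class II alpha chain, was at 195 and 148 CPM in low-MPO cells, at 100.6 and 78.7 in the lowest MPO-high band and at 37.3 and 22.7 in the next. Of 28 genes of G2 and mitosis, 22 were lower in both. MKI67, a marker of cycling cells, was at 79.9 and 66.8 CPM in MPO-high cells, 110 and 112 in low-MPO cells and 430 and 753 in pro-B cells. Of 5 cytokine and chemokine receptors of that level, 5 were lower, among them KIT, the stem cell factor receptor, with 67.2 and 74.6 CPM against 82.0 and 92.1, and FLT3 with 21.1 and 19.2 against 41.2 and 40.7. CSF3R, the receptor of granulocyte colony-stimulating factor, was at only 2.28 and 2.35 CPM in MPO-high cells.

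**Figure D2:**
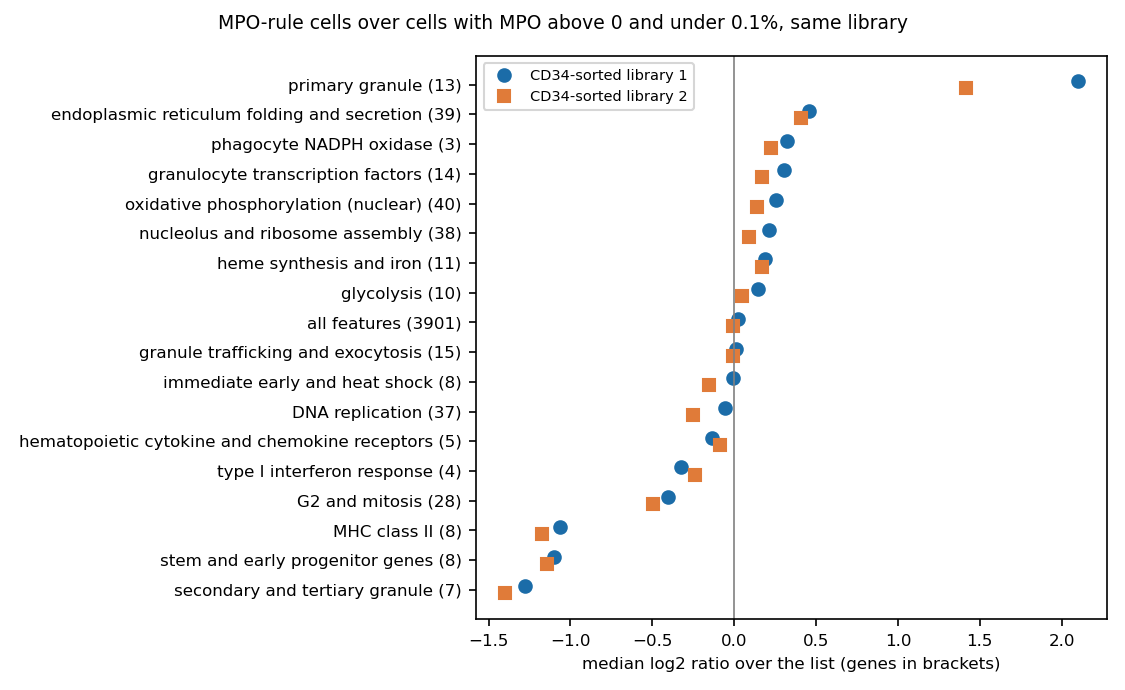
Median over each gene list of the log2 ratio of summed CPM in MPO-high cells to that in low-MPO cells of the same CD34-sorted library (x axis; number of genes with 20 CPM or more in brackets; circle, library 1; square, library 2). The primary granule list lies furthest right, at 2.10 and 1.42, and the secondary and tertiary granule list furthest left, at -1.27 and -1.40.

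Among the granulocyte transcription factors, SPI1 (PU.1), a master regulator of myeloid fate, was at 148 and 186 CPM in MPO-high cells against 105 and 162 in low-MPO cells. GFI1, a repressor needed for neutrophil development, was at 46.7 and 55.1 CPM against 23.8 and 27.5. MYB was at 166 and 115 CPM against 133 and 101. IRF8, a factor of the monocyte and dendritic branches, was at 5.02 and 3.72 CPM against 6.19 and 4.88. GATA2 was at 1.46 and 1.57 CPM against 4.50 and 2.67. CEBPE and GFI1 were higher in each higher MPO band, and IRF8 was low in all.

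The MPO-high sorted cells were uneven in ELANE. Only 21 cells of sorted library 1 (5.19%, exact 95% interval 3.24 to 7.82%) and 50 of sorted library 2 (14.9%, 11.3 to 19.1%) had ELANE at 0.1% of UMIs or more. In sorted library 1, 351 of the 405 cells had no ELANE UMI, and in sorted library 2 230 of the 336. This split was chosen after its values were seen. In the ELANE-rich cells, CD34 was at 152 CPM against 232 in the others of sorted library 1 and at 86.2 against 179 in sorted library 2. CEBPE was at 165 against 57.2 CPM and at 102 against 46.7, and GFI1 at 114 against 42.8 and 97.6 against 47.9. ALPL went the other way, with 105 against 154 and 119 against 152 CPM. LY86, a partner of the receptor RP105 and one of the monocyte or macrophage markers, was also lower, with 33.4 against 98.9 and 42.4 against 89.8.

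The sorted libraries differed in some genes. LYZ, the antibacterial enzyme lysozyme, was at 210 CPM in MPO-high cells of sorted library 1 and 1107 in sorted library 2. The same order held outside them, with 48.9 and 1213 CPM in low-MPO cells and 56.6 and 551 CPM in cells with no MPO UMI. VIM was at 29.9 and 128 CPM, and ELANE at 356 and 1328. Each library is from 1 dog and 1 sort, so dog and library cannot be told apart here.

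To ask how abundant such cells were, the same rule was applied to whole marrow. It held for 8.58% of barcodes in sorted library 1 and 8.92% in sorted library 2. In whole marrow it held for 8.68% (633 cells), 7.81% (358 cells) and 5.83% (253 cells). The means were 8.75 ± 0.243% (SD, n = 2) and 7.44 ± 1.46% (SD, n = 3). Whole marrow 1 lay between the sorted libraries. The difference of 1.32 percentage points was within the spread of the whole marrow libraries (two-sided exact permutation p = 0.3, smallest possible p = 0.1). A share of sorted cells and a share of all marrow cells have different denominators.

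The cells behind those shares were not alike. CD34 had a UMI in 37 of 633 (5.85%), 39 of 358 (10.9%) and 16 of 253 (6.32%) whole marrow cells that met the rule, at median depths of 13567, 13729 and 19850 UMIs. Late neutrophils of whole marrow, taken as cells with at least 10 MMP8 UMIs and none of MPO, had a CD34 UMI in 0 of 179, 1 of 293 and 1 of 239 cells, at median depths of 3522 to 6510 UMIs. ELANE reached 0.1% of UMIs in 80.4%, 81.0% and 91.3% of the whole marrow cells that met the rule, against 5.19% and 14.9% of the MPO-high sorted cells. The same MPO limit thus took mostly ELANE-poor cells in the sort and ELANE-rich cells in whole marrow.

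Counts were summed per library over the cells that met the rule and tested gene by gene, which compares MPO-high sorted cells with whole marrow cells of like MPO share. Of 9348 genes tested, 677 were higher and 1030 lower in the sorted cells at an adjusted p under 0.05 (quasi-likelihood test of edgeR, adjusted by Benjamini-Hochberg). That is 7.24% and 11%, and 18.3% in both directions. The libraries did not overlap in CPM for 57% of genes with the sorted cells higher and for 9.69% with the sorted cells lower, so separation alone is common upward. With the dog as a block, 1364 were higher (14.6%) and 1727 lower (18.5%), 33.1% of genes. That fit has 1 residual degree of freedom. Its fold changes draw little on whole marrow 1, whose dog has no sorted library. Whole marrow cells gave 3 libraries and sorted cells 2, so a single library weighed heavily. Without sorted library 1 the total fell from 1707 to 382, without sorted library 2 to 258, and without whole marrow 3 to 691.

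Scaling and depth bear on these values. In whole marrow, SLPI and ELANE alone took 65356 to 109219 and 35213 to 49755 CPM of the cells that met the rule, so CPM of other genes are lower there. The fitted log2 fold changes use TMM factors, which put the median gene at 0.07. Without those factors the median was 0.63, and 2698 genes (28.9%) were called higher and 458 (4.9%) lower, 33.8% in all. Median depth was 26423 and 30279 UMIs in the sorted cells and 13567, 13729 and 19850 in the whole marrow cells. Depth-matched cells had 20000 to 60000 UMIs on both sides, with medians from 26517 to 30787. Of 8399 genes tested there, 53 (0.631%) were higher and 136 (1.62%) lower (2.25%), and 187 of these 189 were called over all cells too. The window kept 363 and 318 sorted cells, but 162, 102 and 121 of the 633, 358 and 253 whole marrow cells. Fewer calls at matched depth thus cannot be told apart from the loss of cells.

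ALPL differed most from whole marrow among the markers. The markers were picked on these cells, so their tests are not independent evidence. The ALPL level was 152 and 147 CPM in sorted cells against 22.5, 28.6 and 16.9 CPM in whole marrow, with no overlap. The log2 fold change was 2.17 ± 0.17 (SE; edgeR adjusted p = 0.000837), and the gene passed in 16 of 16 alternatives. CALR was at 531 and 534 CPM against 254, 367 and 219, a log2 difference of 0.39 ± 0.18 that did not pass (edgeR adjusted p = 0.17) and that passed without TMM factors at 0.93. RAB44 was at 79.3 and 72.5 CPM against 36.7, 50.4 and 51.2, with a log2 difference of 0.16 ± 0.19 (edgeR adjusted p = 0.588), and passed in 1 of 16 alternatives. MPO, on which both sides were chosen, was at 4125 and 3992 CPM against 3861, 5099 and 4943.

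RBP7 depended on 1 library. Its level was 206 and 221 CPM in sorted cells and 308 and 327 CPM in whole marrow 2 and 3, but 0.525 CPM, from 5 UMIs, in whole marrow 1. Over all cells of that library RBP7 had 24 UMIs, against 3149 and 3081 in whole marrow 2 and 3. The log2 difference was -0.51 ± 1.74 (edgeR adjusted p = 0.862). Without whole marrow 1 it was -1.10 (adjusted p = 0.003), and with the dog as a block it also passed (adjusted p = 0.00163). CSTA, a cysteine protease inhibitor, was at 7.25 CPM in the whole marrow 1 cells that met the rule, against 158 and 165 in whole marrow 2 and 3. Unlike RBP7, it had 2004 UMIs over all cells of whole marrow 1, against 3607 and 3476.

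Among genes with a mean of 30 CPM or more in the sorted cells, DNTT had the largest rise. DNTT, the template-independent DNA polymerase of lymphoid precursors, was at 77.5 and 92.6 CPM against 7.46, 6.55 and 6.33, a log2 fold change of 3.07 ± 0.21 (edgeR adjusted p = 0.000643). DNTT was at 208 and 229 CPM in low-MPO cells and 1852 and 1669 in pro-B cells of the same sorted libraries. The list of pro-B and pre-B markers, CD79A left out, summed to 104 and 119 CPM in the sorted cells that met the rule. In whole marrow it summed to 11.1, 11.3 and 11.4 CPM. DNTT is itself on that list and made up most of each sum, so the sums are not separate evidence. The part of B-lineage RNA in the result was not tested. With called doublets removed DNTT still passed, as it did in all 16 alternatives. MARCKSL1, a calmodulin-binding membrane protein, was at 70.6 and 67.1 CPM against 3.78, 10.96 and 6.14 (log2 fold change 2.80 ± 0.31). ENPP3, an ectonucleotide phosphodiesterase, was at 84.4 and 75.1 CPM against 6.09, 14.2 and 8.19 (2.55 ± 0.25). Cyclin D2 (CCND2) was at 72.8 and 81.8 CPM against 9.98, 20.8 and 15.8 (1.78 ± 0.24). Thromboxane synthase TBXAS1, the translation factor GSPT2, the lysosomal nuclease DNASE2, the chemoattractant RARRES2 and the transcription factor TCF4 were the others of the 10 largest, besides ALPL, with log2 fold changes of 1.60 to 2.25. At matched depth, DNASE2 (edgeR adjusted p = 0.11), RARRES2 (0.06) and TCF4 (0.12) no longer passed. Their log2 fold changes were then 1.19, 1.26 and 1.13.

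Of 16 stem and early progenitor genes tested, CD34 left out, 9 were higher and 2 lower in the sorted cells. ADGRG1 was at 12.2 and 8.32 CPM against 0.315, 0 and 0.745 (log2 fold change 4.30 ± 0.66). TFPI was at 12.2 and 12.1 CPM against 1.16, 0.982 and 0.558 (3.12 ± 0.34), and HOXA7, a homeobox factor, at 11.2 and 9.79 against 0.21, 1.64 and 1.30 (2.89 ± 0.54). PROM1, which encodes CD133, went against the list, with 2.01 and 1.76 CPM against 5.78, 9.16 and 7.82 (-2.54 ± 0.31, edgeR adjusted p = 0.00354). The 17 tested receptors had 1 call upward, beside 7.24% of all genes. It was KIT, at 67.2 and 74.6 CPM against 15.0, 25.4 and 13.4 (1.45 ± 0.21). At matched depth 3 stem genes passed, all higher. KIT was then at 1.12 (adjusted p = 0.061). Of the stem genes, 3 were higher without either sorted library and 4 without whole marrow 3.

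Granule genes were lower in the sorted cells. Of 19 primary granule genes tested, MPO left out, 13 were lower and 0 higher. ELANE was at 356 and 1328 CPM against 35213, 40801 and 49755 (log2 fold change -6.20 ± 0.76, edgeR adjusted p = 0.00597). SLPI was at 568 and 535 CPM against 109219, 65356 and 95644 (-7.96 ± 0.52, edgeR adjusted p = 0.000594). LYZ was at 210 and 1107 CPM against 10432, 15962 and 16854. SRGN, the proteoglycan that holds granule proteins, was at 30.2 and 35.0 CPM against 269, 310 and 455 (-3.99 ± 0.35). Leaving out single libraries left 8 to 12 lower, the smallest count without either sorted library or whole marrow 3. At matched depth 3 of 19 were lower, and without TMM factors 10 were lower and 2 higher.

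Of 17 secondary and tertiary granule genes tested, 16 were lower and 0 higher. CAMP was at 3.83 and 24.1 CPM against 7656, 7711 and 14261. S100A12, an alarmin of maturing neutrophils, was at 0.547 and 2.35 CPM against 3119, 2189 and 3986. LCN2 had 2 UMIs over both sorted libraries against 2005 in whole marrow, a ratio of 1011 per UMI sequenced (exact 95% interval 279 to 8351). PGLYRP1, a peptidoglycan recognition protein, had 3 UMIs against 3450, a ratio of 1159 (396 to 5625). The carbonic anhydrase gene CA6 had 4 against 623. Leaving out single libraries left 9 to 15 of the list lower, with 11 without sorted library 1 and 9 without sorted library 2. At matched depth 7 of 16 passed.

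Erythroid genes were among the largest falls. HBM, a globin gene, had 4 UMIs in sorted cells and 2641 in whole marrow cells, and AHSP, the chaperone of alpha globin, had 5 and 3064. ALAS2, the erythroid form of the first heme enzyme, had 0 UMIs in the sorted cells and 4.31, 4.91 and 12.5 CPM in whole marrow. The 16 erythroid markers together summed to 330, 216 and 668 CPM in the whole marrow cells that met the rule, against 62.0 and 78.3 in the sorted cells. The part of free erythroid RNA in these differences was not tested, nor that of free RNA in the differences of the granule genes above.

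Genes of protein folding and oxidant production were lower in the sorted cells too, less steeply. Of 47 endoplasmic reticulum genes, 18 were lower and 1, ATF4, higher. HSPA5, the chaperone BiP, was at 234 and 175 CPM against 391, 470 and 277 (log2 fold change -1.44 ± 0.22, edgeR adjusted p = 0.00744). PDIA3, SDF2L1 and DNAJB9 were at -1.34, -1.29 and -1.36. Without TMM factors the split was 5 higher and 6 lower, so the balance of the list turns on the scaling, while HSPA5 stayed lower at -0.89. Without sorted library 1 the list had 3 lower, without sorted library 2 0, and without whole marrow 3 8. Of 7 NADPH oxidase genes, 3 were lower and 0 higher, CYBA and CYBB among them. CYBB, the catalytic subunit, was at 20.5 and 23.0 CPM against 42.6, 85.3 and 77.8 (-2.20 ± 0.28, edgeR adjusted p = 0.00455). The GTPase genes RAC2 (edgeR adjusted p = 0.119) and RAC1 (0.733) did not pass. With the dog as a block 5 of the 7 were lower, as without whole marrow 1, and without either sorted library 1 was. At matched depth none of the 7 passed, with CYBB at -1.50 (adjusted p = 0.139) and CYBA at -0.97 (0.0644).

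Of 26 granulocyte transcription factors tested, MYC was higher and CEBPE, GFI1 and NFIL3 were lower. Over all genes 7.24% were higher and 11% lower, so nothing is read from the count. MYC was at 66.8 and 58.7 CPM against 15.2, 22.8 and 18.8 (log2 fold change 1.18 ± 0.17, edgeR adjusted p = 0.00611). CEBPE was at 63.1 and 54.8 CPM against 83.7, 109 and 152 (-1.54 ± 0.30, edgeR adjusted p = 0.0176). GFI1 overlapped in CPM, with 46.7 and 55.1 against 53.8, 58.9 and 68.7, and without TMM factors it did not pass (adjusted p = 0.333). The list then had 5 higher and 2 lower. At matched depth none of these was called, with MYC at 0.87 (adjusted p = 0.055) and CEBPE at -0.87 (0.42). Without sorted library 1 the list had 0 calls, without sorted library 2 1, and without whole marrow 3 2.

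Nucleolar genes were higher and mitotic genes lower in the sorted cells. Of 41 genes of nucleolus and ribosome assembly, 19 were higher and 0 lower. NOP2, a ribosomal RNA methyltransferase, was at 40.4 and 41.8 CPM against 7.88, 16.5 and 11.9 (log2 fold change 1.24 ± 0.24, edgeR adjusted p = 0.0147). RRP9 and MYBBP1A were at 1.14 and 1.07. That count fell to 1 without either sorted library, to 9 without whole marrow 2 and to 4 without whole marrow 3, and none passed at matched depth, where the list's median was 0.51 against 0.64 over all cells. Without TMM factors 35 were higher, with a median of 1.19. Of 51 genes of G2 and mitosis, 38 were lower and 0 higher. PLK1, a mitotic kinase, was at 8.76 and 8.13 CPM against 30.1, 47.3 and 19.0 (-2.45 ± 0.31, edgeR adjusted p = 0.00401). Cyclin B2 (CCNB2) was at 23.3 and 25.0 CPM against 72.2, 87.9 and 86.5 (-2.33 ± 0.18). At matched depth 27 of the 51 were lower, and without sorted library 2 18. Of 49 DNA replication genes, 2 were higher and 6 lower, beside 7.24% and 11% of all genes, so nothing is read from that count. Among the 6 was PCNA, the polymerase clamp, at 41.2 and 41.9 CPM against 51.8, 85.1 and 92.1. Without TMM factors 13 of those 49 were higher and 3 lower, and without sorted library 2 none was called.

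The remaining lists had few calls, beside 7.24% of all genes higher and 11% lower. Of 42 oxidative phosphorylation genes, 7 were lower, and without TMM factors 9 were higher and 0 lower. None was called without either sorted library or at matched depth, and 1 without whole marrow 3. Of 25 genes of heme synthesis and iron, 5 were lower, including TFRC, the transferrin receptor, at 34.4 and 20.9 CPM against 42.3, 78.9 and 43.4. Of 34 granule trafficking genes, 6 were lower, led by RAB3D, an exocytosis GTPase, with 0.365 and 0.196 CPM against 12.3, 15.4 and 19.5. Without TMM factors the heme list had 3 higher and 4 lower and the trafficking list 8 higher and 3 lower, and without sorted library 2 they had 0 and 2 lower. MHC class II had 1 of 12 genes higher, DLA-DOA. Glycolysis had 1 higher and 2 lower of 17, immediate early and heat shock genes 1 and 1 of 18, the type I interferon response 0 and 1 of 20, and retinoid handling 0 of 6, RBP7 included.

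**Figure D3:**
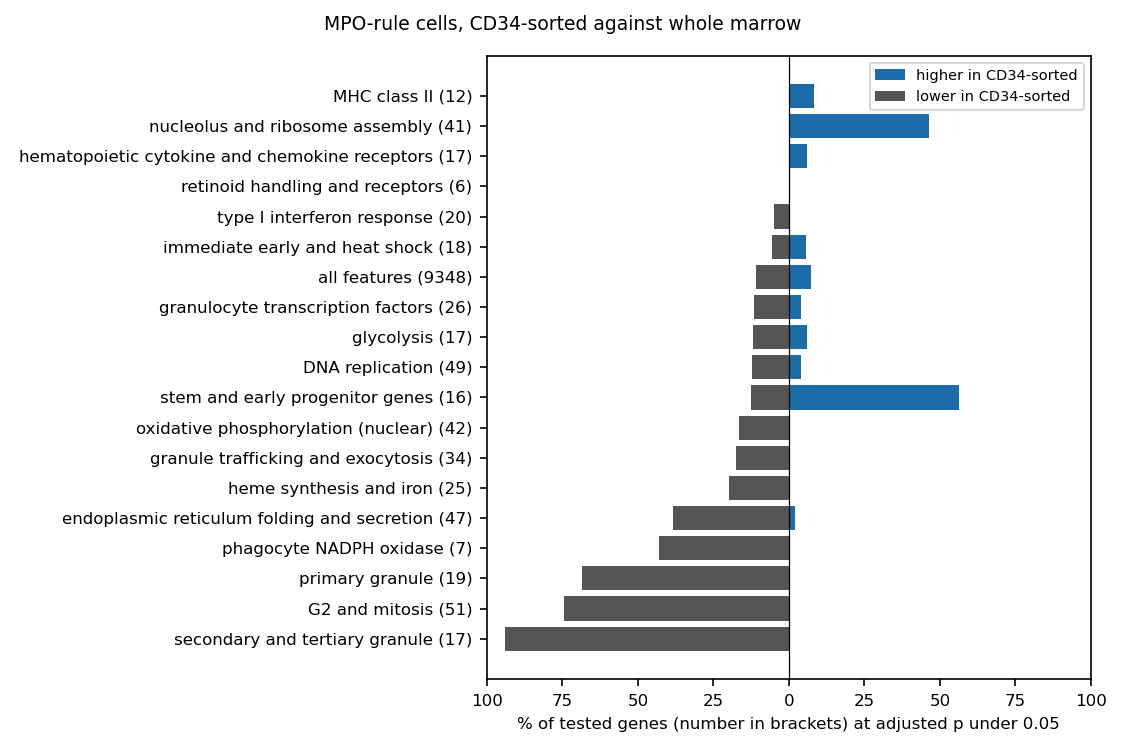
Share of the tested genes of each list (% of the number in brackets) that were higher (right) or lower (left) in MPO-high sorted cells than in whole marrow cells meeting the same rule, at an edgeR adjusted p under 0.05. Stem and nucleolar genes extend to the right, granule and mitotic genes to the left, and all 9348 features stand at 7.24% and 11%.

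**Figure D4:**
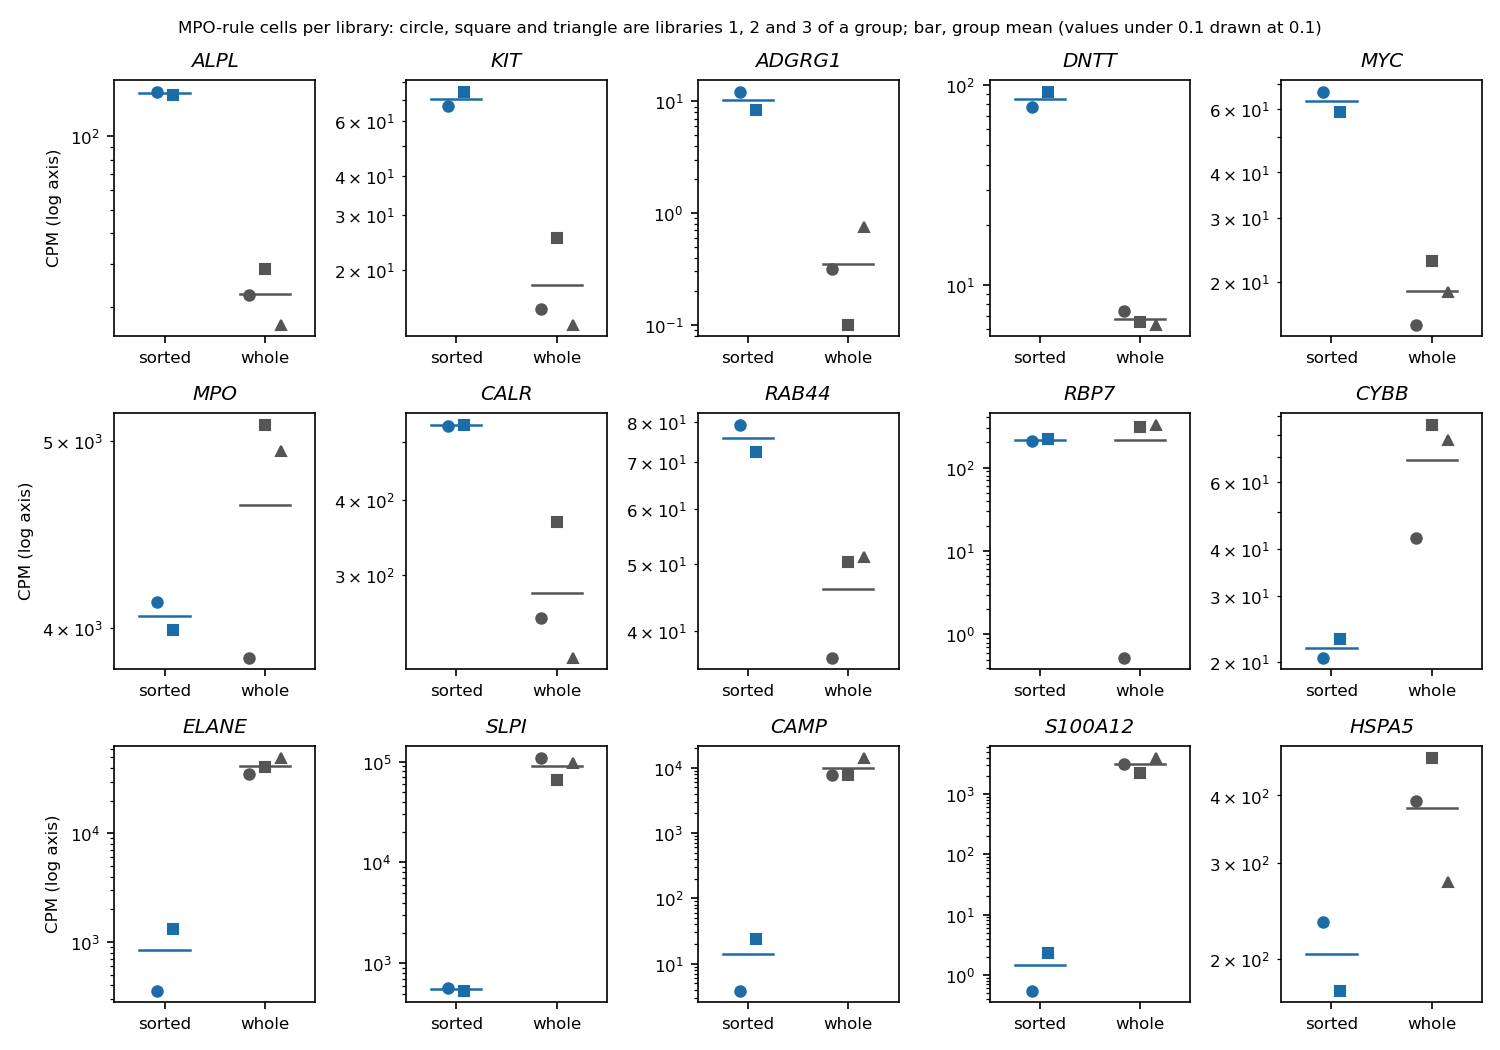
Level (CPM, log axis) of 15 genes in the cells that met the rule, per library: 2 CD34-sorted and 3 whole marrow points, with the group mean as a bar. ALPL, KIT, ADGRG1, DNTT and MYC lie higher in the sorted cells, ELANE, SLPI, CAMP and S100A12 lower, and RBP7 has 1 whole marrow library at 0.525 CPM.

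Both sides were then restricted to cells with a CD34 UMI. This left 395 and 315 sorted cells against 37 and 39 cells of whole marrow 1 and 2. Whole marrow 3 had 16 such cells, below the minimum of 20, and was left out. The restriction kept 97.5% and 93.8% of the sorted cells, and 5.85% and 10.9% of the cells of whole marrow 1 and 2. In whole marrow it kept deeper cells, with medians of 34626 and 40527 UMIs against 13567 and 13729 before it. The part of this choice of cells in the differences was not tested. Of 8610 genes tested, 0 were higher and 21 (0.244%) lower in the sorted cells by edgeR, while 600 (6.97%) had an unadjusted p under 0.05. DESeq2 called 3 higher and 82 lower, and edgeR with no low-count filter 13 higher and 100 lower. Some fits that kept a single whole marrow library called more genes higher than lower. The 0 is thus not read as an absence of higher genes. This comparison has fewer libraries and far fewer whole marrow cells than the first, so the counts of the 2 comparisons are not set against each other. ALPL was at 153 and 152 CPM against 102 and 75.8 (log2 difference 0.80 ± 0.21, edgeR adjusted p = 0.393). CD34 was at 233 and 174 CPM against 135 and 102, and CALR at 530 and 539 against 634 and 686 (edgeR adjusted p = 0.804). MPO was at 4070 and 3954 CPM against 4950 and 6885, so the sides were not of like MPO share. It was under 0.5% of UMIs in 268 of 395 and 223 of 315 sorted cells. In whole marrow 1 and 2 that held for 21 of 37 and 11 of 39 cells. The part of MPO share in the differences below was not tested.

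Mitotic genes were lower in the sorted cells here too, 7 of the 21 being of the G2 and mitosis list. PLK1 was at 8.41 and 7.79 CPM against 51.3 and 83.5 (log2 fold change -3.03 ± 0.28, edgeR adjusted p = 0.0197). MKI67 was at 79.6 and 67.3 CPM against 270 and 233 (-1.76 ± 0.19, edgeR adjusted p = 0.0315). CENPF, a kinetochore protein, was at 148 and 148 CPM against 502 and 530 (-1.79 ± 0.16). AURKB, the chromosomal passenger kinase, was at 25.4 and 20.8 CPM against 88.9 and 95.8 (-1.98 ± 0.20). The mitotic genes GTSE1, ASPM and CENPE and the tubulin gene TUBB6 were at -2.61, -2.31, -1.58 and -1.58. Of 51 genes of G2 and mitosis, 7 were lower after adjustment over all genes and 0 higher, and the median log2 difference was -1.74 against 0.01 for all genes. Of 48 DNA replication genes, 0 passed, with a median of -0.11.

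SLPI was lower too, at 550 and 326 CPM against 9366 and 11101 (log2 fold change -4.53 ± 0.31, edgeR adjusted p = 0.0159). PLAC8A was at 29.0 and 41.0 CPM against 271 and 391 (-3.22 ± 0.26). In the granule lists edgeR called 1 of 18 primary genes and 0 of 11 secondary and tertiary genes lower, of which 7 and 8 had an unadjusted p under 0.05, with medians of -0.43 and -1.95. DESeq2 called 3 of 19 and 7 of 14 lower. Without whole marrow 1 edgeR called 5 and 4 lower, and without whole marrow 2 it called 2 and 6. The erythroid genes HBM, AHSP and CA1 were also among the 21. The calls rest on 4 libraries: without sorted library 2 none of the 21 passed, without sorted library 1 11 genes did, and without whole marrow 1 or 2, when the lone library was assumed to vary like the sorted pair, 102 and 571 did. Median depth was 26418 and 30745 UMIs in the sorted cells and 34626 and 40527 in the whole marrow cells. In cells of 20000 to 60000 UMIs 23 genes were lower and 0 higher, 20 of them shared with the main 21. That window did not match depth here, with medians of 27342 and 30946 UMIs in sorted cells and 34870 and 40783 in whole marrow cells.

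**Figure D5:**
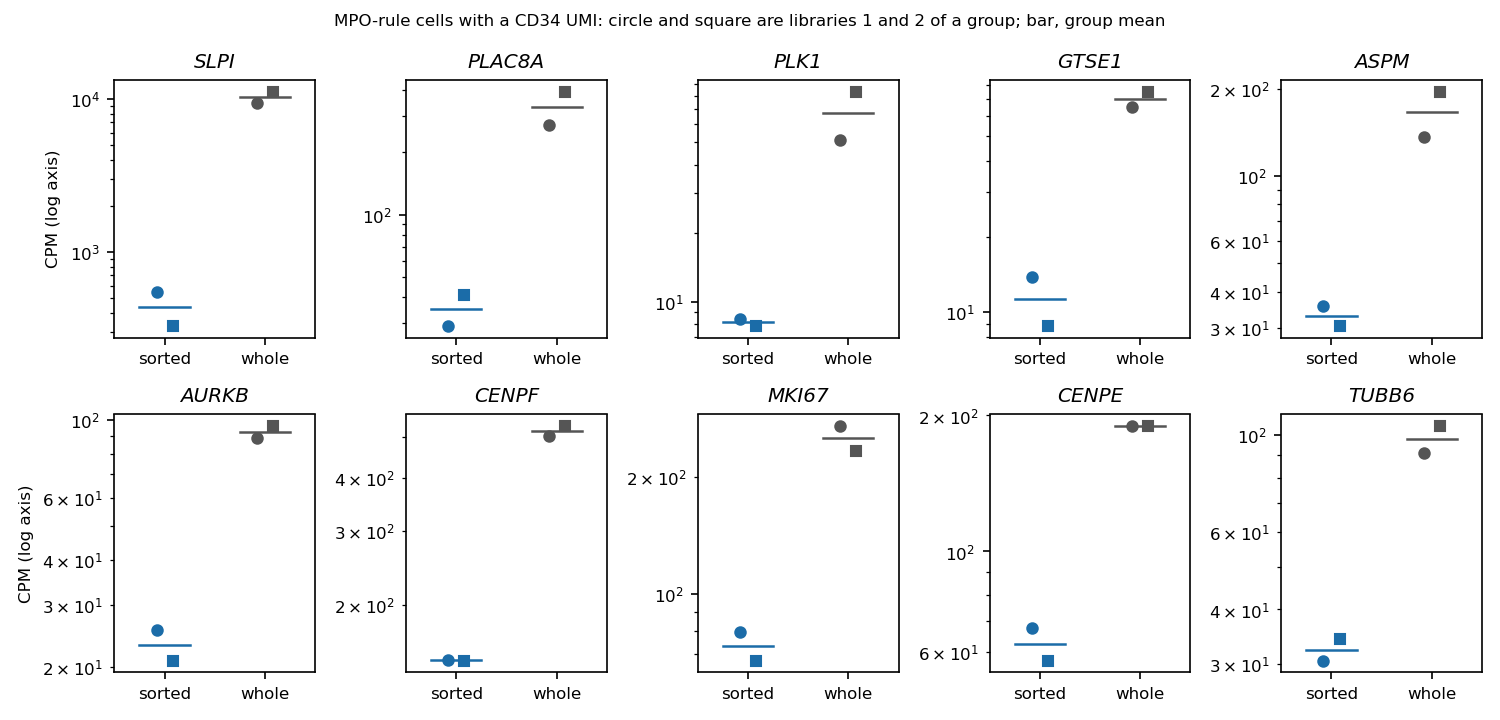
Level (CPM, log axis) of the 10 named genes that were lower in MPO-high sorted cells among cells with a CD34 UMI, per library, with 2 CD34-sorted and 2 whole marrow points and the group mean as a bar. The 10 were picked among genes whose sorted points both lie below both whole marrow points, which held for 19.2% of the 8610 tested genes.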

How the data were processed

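UMI counts per gene and barcode were deposited by the authors as filtered 10x matrices, made with Cell Ranger 7.0.1 per the file headers (7.1.0 per the submitters' processing notes) on CanFam 3.1. Strand settings are not given in the sources used here. Barcodes were filtered as stated, and doublets were called per library with Scrublet (scanpy 1.11.5, 0.8% per 1000 barcodes) and kept in the main analysis. Counts were summed per library over cells and tested with edgeR 4.0.16 (TMM, filterByExpr, robust quasi-likelihood, Benjamini-Hochberg). DESeq2 1.42.0 was an alternative. Comparisons within the sorted libraries are descriptions.

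The cells, gene lists and markers were chosen with earlier results of these data known. Named genes were the 5 markers, the 10 largest changes each way at 30 CPM or more without overlap, and up to 4 per list past the threshold. Genes that the rule or the sort used were not named as changes. A gene past the threshold in its list is not reported here. Of the 30 primary granule symbols listed, 20 matched.

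The fits were tested on simulated counts with known fold changes. Each unchanged gene had the same mean in every library, all genes had the same fixed dispersion, and 100 genes were changed per fold. The simulation held no outlying library and no dominant genes on 1 side only, unlike the data. Its rates hold for those settings and are not rates of these data. In the first comparison 90% of 2-fold and 100% of 4-fold changes were recovered, and 6.86% of calls were false. In the second, 57% and 96% were recovered, and 5.56% of calls were false. The labels say that the sort used marrows 2 and 3. Which library came from which was inferred from library numbers: the sorted difference (library 1 minus 2) correlated at 0.332 with whole marrow 2 minus 3 over 9348 genes, which are not independent replicates.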

Additional observations from a re-analysis of the deposited data

How the results depend on the processing

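The first comparison gave 1707 calls. They moved to 3091 with the dog as a replicate block, to 3156 without TMM factors, and to 189 in cells of 20000 to 60000 UMIs, of which 1697, 1130 and 187 were shared with the 1707. Leaving out single libraries gave 258 to 2385. DESeq2, no low-count filter, doublet removal, thinning, other MPO limits and cells of at least 8000 UMIs gave 1151 to 2043. The second comparison gave 21 calls. DESeq2 gave 85, no low-count filter 113, an MPO limit of 0.2% 40, MPO from 0.1 to under 0.5% 183, and thinning to 2000 UMIs per cell 8 of 3170 tested, and leaving out single libraries gave 0 to 571. With MPO from 0.1 to under 0.5%, and without whole marrow 2, more genes were called higher than lower. Each of those fits kept a single whole marrow library. No paired analysis was possible for the second comparison, because the block left no residual degrees of freedom. In the share of cells, the sorted mean stayed higher in every alternative run, by 0.750 to 3.56 points, and by 0.510 (without whole marrow 3) to 1.94 points (without whole marrow 1) without single libraries. Whole marrow 1 exceeded both sorted libraries when thinned (12.05% against 11.05% and 10.46%) and at a limit of 0.05%. The 24 features at least 2-fold higher in MPO-high cells became 23 without called doublets and 30 to 37 in either sorted library alone. In the first comparison the log2 difference of RBP7 ran from -1.10 to 0.13 without single libraries, turning to 0.13 without whole marrow 3, and was 0.0138 without TMM factors. In the second it ran from -0.25 without whole marrow 1 to 8.15 without whole marrow 2. RAC1 ran from -0.26 to 0.048 without single libraries, turning to 0.048 without whole marrow 2, and was 0.41 without TMM factors. With MPO from 0.1 to under 0.5%, CALR turned to 0.00896 in the second comparison. MPO was 0.00934 there, a value that the selection on MPO bounds and that is no test. The cause was not tested. The alternatives on TMM factors and on cell depth, and those of the 24 features, were chosen after seeing the data. With 2 sorted libraries the share test could not reach 0.05, and the second comparison rests on 37 and 39 whole marrow cells.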

Other observations

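RBP7 was the gene of the 5 markers whose level set 1 dog's library apart: 24 UMIs over all cells of whole marrow 1 against 3149 and 3081 in whole marrow 2 and 3. NMNAT1 and UBE4B, genes near RBP7 in the RefSeq annotation of UU_Cfam_GSD_1.0, had 151 and 484 UMIs in whole marrow 1, against 214 and 512 in whole marrow 2 and 121 and 427 in whole marrow 3. Both neighbours were thus detected at like levels in all 3 whole marrow libraries.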
